A study of Mus musculus with 23 samples.

Results

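The mesothelial genes of the epididymal fat pad were examined in mice without a tumor and in mice with a pancreatic tumor. The list held 9 genes, Msln, Upk3b, Upk1b, Wt1, Lrrn4, Muc16, Krt8, Krt18 and Krt19, and members were the rows of the fat count table with these symbols. The table of 16962 genes gave 8 of the 9, and Muc16 was not analysed here. All mice were male C57BL/6J, and surgery was done at 8 weeks of age. The no tumor group had sham surgery. The KPC group received cells in the pancreas from a line whose donor was a male mouse with a pancreatic tumor and alleles that included LSL-Trp53R172H and Pdx1-Cre. These cells had been transfected with a plasmid carrying a null guide RNA. The KPC IL6KO group received cells of the same line edited in Il6 with CRISPR/Cas9. Each line was 1 clone, the Il6 gene of the hosts was intact, and all mice were killed together once a group showed wasting. Fat pads of 4 mice per group gave 1 library each, numbered 5 to 8 within a group, and the labels number the quadriceps libraries of the series 1 to 4 without saying whether they share mice with the fat.

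The mesothelium is a single sheet of flattened epithelial cells that lines the abdominal cavity and covers its organs, including visceral fat pads such as the epididymal one. Mesothelial cells arise from mesoderm, yet they carry keratins in common with other simple epithelia, together with membrane proteins such as mesothelin and uroplakins and the transcription factor WT1. No member is restricted to this cell layer. Keratins 8, 18 and 19 are made by most simple epithelia, including epididymal duct and ductal tumor cells, mesothelin is also made by many pancreatic tumors, and WT1 is also made by stromal cells of visceral fat. In a bulk library, fewer cells of a type and less RNA per cell cannot be told apart.

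Counts per library summed to between 26306377 and 56308545, and levels are given as CPM, the count divided by the library size after TMM normalization and scaled to a total of 1000000. The tissue sampled was not fat alone. Gpx5, a secreted protein of the epididymal duct, had levels of 21347 to 54957 CPM in no tumor 5 and 7, all of KPC and KPC IL6KO 6, which makes 7 libraries, whereas the other 5 had 4.69 to 85.8 CPM. The summed level of the epididymis genes in the table, 19 of a list of 20, ranged from 13532 to 114794 CPM in no tumor, from 48061 to 82340 in KPC and from 4307 to 113291 in KPC IL6KO. That of 12 adipocyte genes ranged from 3156 to 43187 CPM in no tumor, from 3677 to 14056 in KPC and from 5845 to 24641 in KPC IL6KO. No tumor 8 also stood apart in the urothelial uroplakins Upk1a, Upk2 and Upk3a, with 137, 47.8 and 79.2 CPM. KPC IL6KO 5 stood apart in Pate4, with 3534 CPM. Pate4 was in the epididymis list and made up most of the 4307 CPM summed in that library, where Gpx5 was at 85.8 CPM. Il6 RNA in a fat pad can come from the unedited host, so it does not check the edit of the tumor cells. It was at 0 to 0.0632 CPM in no tumor, at 2.02 to 5.30 in KPC and at 0.0343 to 4.77 in KPC IL6KO.

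Promoter sequences are shown for pairs whose ratio turned out to differ in KPC (Lrrn4 to Upk3b) or to be most stable (Krt8 to Krt18). They are RefSeq sequences of build GRCm38.p6, printed 5′ to 3′ on the strand of the gene from 250 bases before the start that RefSeq gives to 20 bases after it, and promoters were found for 5 of the 9 genes. The gene positions given here are GENCODE's, and the RefSeq start lies 140 bases inside the GENCODE gene for Krt8, 36 for Krt18, 29 for Lrrn4 and 0 for Upk3b. Capitals mark matches, on either strand, to GGAATG (the core recognized by TEAD factors), GTGGGNG (a motif of the WT1 and EGR type) or TATAAA (the box bound by TBP). The motifs were chosen after the sequences had been seen. The promoters lie at chr5:136038246-136038515 on the plus strand (Upk3b), chr2:132880843-132881112 on the minus strand (Lrrn4), chr15:102004323-102004592 on the minus strand (Krt8) and chr15:102027966-102028235 on the plus strand (Krt18).
Upk3b: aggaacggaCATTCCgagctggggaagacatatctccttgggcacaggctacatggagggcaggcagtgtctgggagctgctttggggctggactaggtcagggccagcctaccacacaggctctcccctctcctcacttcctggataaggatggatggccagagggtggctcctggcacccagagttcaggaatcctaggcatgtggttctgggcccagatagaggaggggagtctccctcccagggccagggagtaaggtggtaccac
Lrrn4: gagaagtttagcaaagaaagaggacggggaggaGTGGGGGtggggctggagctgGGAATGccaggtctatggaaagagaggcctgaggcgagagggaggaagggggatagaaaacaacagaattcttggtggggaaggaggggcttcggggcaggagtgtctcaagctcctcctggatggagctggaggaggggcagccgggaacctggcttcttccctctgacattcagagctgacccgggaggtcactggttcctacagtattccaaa
Krt8: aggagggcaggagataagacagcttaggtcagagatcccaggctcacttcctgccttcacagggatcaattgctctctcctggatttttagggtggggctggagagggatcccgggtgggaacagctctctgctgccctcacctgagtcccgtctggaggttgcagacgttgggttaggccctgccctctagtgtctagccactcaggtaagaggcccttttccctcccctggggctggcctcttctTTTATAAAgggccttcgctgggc
Krt18: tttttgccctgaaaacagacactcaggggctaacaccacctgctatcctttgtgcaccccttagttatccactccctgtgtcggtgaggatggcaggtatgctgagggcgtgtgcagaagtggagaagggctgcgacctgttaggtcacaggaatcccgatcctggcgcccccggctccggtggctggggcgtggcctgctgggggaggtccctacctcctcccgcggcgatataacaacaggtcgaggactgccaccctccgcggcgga

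GGAATG was found at 1 place in the Upk3b promoter, beginning 241 bases before the start, and at 1 place in the Lrrn4 promoter, 196 bases before it. Of 32851 promoters of this length, 13.5% held this motif. GTGGGNG was found at 1 place, in Lrrn4, 217 bases before the start, and 29.7% of promoters held it. Krt8 held TATAAA in both directions, in 2 matches that overlap and begin 3 bases before the RefSeq start and inside the GENCODE gene, and 12.9% of promoters held it. None of these letters was found in this window of Krt18. A match is a description of the letters and not a measured binding site.

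By level per kilobase of exon, the members fell in a wide order. The median over the 12 libraries was 281 CPM per kb for Krt18, 158 for Krt8, 86.1 for Krt19, 33.8 for Upk1b, 14.6 for Msln, 5.80 for Upk3b, 5.27 for Lrrn4 and 3.08 for Wt1. The keratins of simple epithelia thus stood at the top, and Upk3b, Lrrn4 and Wt1 at the bottom. Neighbours in the order overlapped over libraries in every case. Within a gene the highest library exceeded the lowest by 98.7 times for Msln and by 9.67 to 20.7 times for the other 7.

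Msln encodes the precursor of mesothelin, a cell surface protein that binds MUC16. The gene lies on the minus strand of chromosome 17 at 25748613 to 25754378 (GRCm38, as for all gene positions here). Its level in replicates 5, 6, 7 and 8 was 5.98, 21.8, 5.53 and 32.7 CPM in no tumor, 104, 37.9, 51.4 and 149 in KPC, and 546, 8.61, 53.8 and 162 in KPC IL6KO. All 4 KPC libraries lay above all 4 no tumor libraries, whereas KPC IL6KO spanned both, from a level among the lowest to the highest of all. The mean was 16.5 ± 13.2 (SD, n = 4) CPM in no tumor, 85.6 ± 51.0 in KPC and 193 ± 244 in KPC IL6KO.

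Upk3b, a uroplakin that is a common marker of mesothelial cells, lies on chromosome 5 at 136038496 to 136046487 on the plus strand. In replicates 5 to 8 it was at 5.48, 60.0, 8.25 and 89.4 CPM in no tumor, at 16.8, 19.0, 21.9 and 14.5 in KPC, and at 46.4, 13.5, 58.2 and 63.8 in KPC IL6KO. Here KPC was the most even group, and its 4 libraries sat inside the range of no tumor. In no tumor the low libraries were 5 and 7, which hold much Gpx5, and in KPC IL6KO the low library was 6, the only one of its group with much Gpx5. The highest level was in no tumor 8, the library that also stood apart in the urothelial uroplakins Upk1a, Upk2 and Upk3a. The part of urothelial RNA in that level was not tested. Upk1b, a tetraspanin that partners uroplakins of the Upk3 type, lies on the minus strand of chromosome 16 at 38773184 to 38800328. It was at 161, 19.6, 81.5 and 122 CPM in no tumor, at 238, 103, 59.4 and 43.8 in KPC, and at 32.7, 119, 19.97 and 59.8 in KPC IL6KO. It did not follow Upk3b, and its 3 groups overlapped.

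Lrrn4, a leucine-rich repeat membrane protein that marks mesothelial cells, lies on chromosome 2 at 132868305 to 132880891 on the minus strand. Its level in replicates 5 to 8 was 3.03, 19.8, 3.02 and 21.3 CPM in no tumor, 19.3, 21.9, 20.1 and 13.7 in KPC, and 16.4, 5.18, 20.6 and 33.8 in KPC IL6KO. The 3 low libraries were the same as for Upk3b, no tumor 5 and 7 and KPC IL6KO 6, and the 4 KPC libraries were not low although they hold much Gpx5. Wt1, a zinc finger transcription factor of the embryonic and adult mesothelium, lies on the plus strand of chromosome 2 at 105126529 to 105173616, 18 bases from the antisense gene Wt1os. It was at 1.31, 10.3, 3.28 and 18.4 CPM in no tumor, at 24.7, 27.2, 21.7 and 12.9 in KPC, and at 19.8, 7.00, 20.9 and 27.1 in KPC IL6KO. The same 3 libraries were lowest, and 3 of the 4 KPC libraries lay above all of no tumor.

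Krt8 and Krt18 encode the type II and type I keratins that pair into the filaments of simple epithelia. They are neighbours on chromosome 15, at 101996698 to 102004482 on the minus strand and at 102028180 to 102032027 on the plus strand, with 23697 bases between them. Krt8 was at 275, 113, 298 and 259 CPM in replicates 5 to 8 of no tumor, at 572, 322, 478 and 906 in KPC, and at 1093, 290, 272 and 497 in KPC IL6KO. Krt18 was at 398, 98.5, 396 and 325 CPM in no tumor, at 835, 525, 531 and 1038 in KPC, and at 916, 398, 263 and 410 in KPC IL6KO. For both, every KPC library exceeded every no tumor library, and KPC IL6KO overlapped both groups. Both keratins have processed copies elsewhere in the genome and Krt8 overlaps a noncoding gene on the other strand, so reads could have been left out or shared, and how the counting treated strand is not given in the sources used here.

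Krt19, a type I keratin of ducts and of mesothelium, lies on chromosome 11 at 100140810 to 100148665 on the minus strand. It was at 95.8, 104, 110 and 132 CPM in replicates 5 to 8 of no tumor, at 325, 138, 237 and 461 in KPC, and at 724, 182, 60.5 and 354 in KPC IL6KO. It was the most even member among the no tumor libraries, with a highest level 1.38 times the lowest. KPC lay above no tumor in all libraries, by a small margin for KPC 6, and KPC IL6KO held both the lowest and the highest library of the 12.

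**Figure D1:**
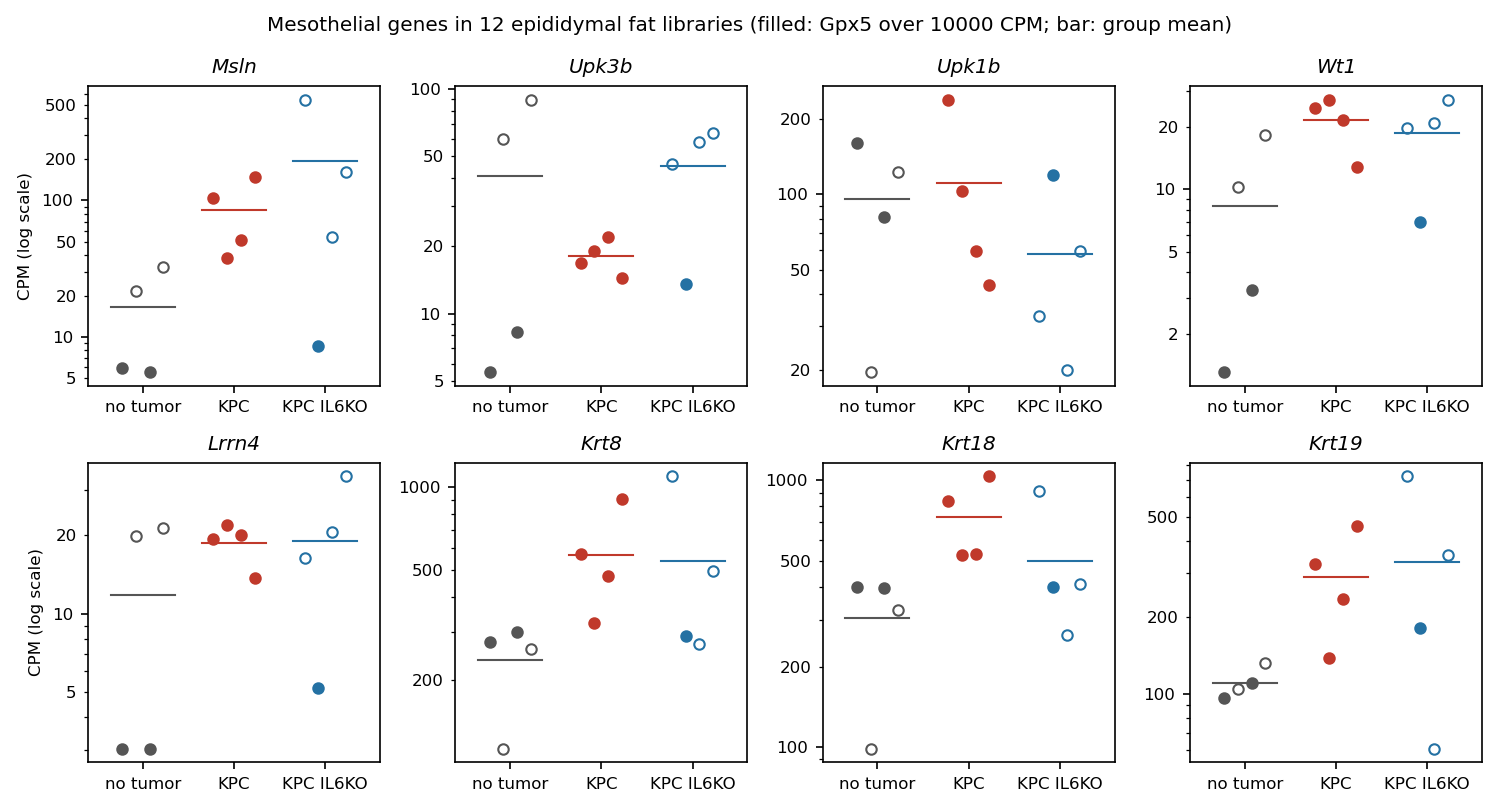
Level of the 8 genes in each epididymal fat library, as CPM on a log axis, by group (4 libraries each; points from left to right are replicates 5 to 8). Filled points are the 7 libraries with Gpx5 over 10000 CPM, open points the other 5, and the bar is the group mean. For Msln, Krt8, Krt18 and Krt19 all KPC points lie above all no tumor points, and for Upk3b, Lrrn4 and Wt1 the filled no tumor points and the filled KPC IL6KO point are the lowest of their groups.

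The first comparison asked how the fat pad of mice with KPC tumors differed from that of mice without a tumor. Every KPC library exceeded every no tumor library for 4 of the 8 members, Msln, Krt8, Krt18 and Krt19, and this held for 6.52% of all genes in the table. The other 4 members, Upk3b, Upk1b, Wt1 and Lrrn4, overlapped. In edgeR's quasi-likelihood fit to all 12 libraries, the log2 FC of KPC over no tumor was 2.37 (SE 1.04, FDR 0.397) for Msln, 1.39 (SE 0.61, FDR 0.394) for Krt19, 1.27 (SE 0.50, FDR 0.359) for Krt8 and 1.27 (SE 0.49, FDR 0.353) for Krt18. None of these passed the rule for a called gene, which needs an FC of 1.5 or more and an FDR no higher than 0.05. The log2 FC was 1.37 (SE 0.68, FDR 0.461) for Wt1, 0.67 (SE 0.69, FDR 0.709) for Lrrn4, 0.21 (SE 0.72, FDR 0.926) for Upk1b and -1.18 (SE 0.77, FDR 0.592) for Upk3b.

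No member was called, and 0% of the 16962 genes were called in this fit. At an unadjusted p under 0.05 there were 4 members and 2061 genes, and DESeq2 called 0 members, with 2.15% of genes called up and 1.3% called down. The median log2 FC was 1.27 over the members and -0.10 over all genes. The variation between libraries of a group was large, with a biological coefficient of variation of 63.5% in the common estimate over all genes.

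In KPC IL6KO compared with no tumor, Msln had the highest log2 FC of the members, 3.54 (SE 1.09, FDR 0.394 by edgeR's quasi-likelihood test), and it was not called. DESeq2 gave Msln a log2 FC of 3.51 and an FDR of 0.0196 and edgeR's likelihood ratio test an FDR of 0.0464, and with either it was the 1 member called, where 1.66% and 1.23% of genes were called up. The value rests largely on KPC IL6KO 5, and KPC IL6KO 6 overlapped no tumor. Without KPC IL6KO 5, the log2 FC of Msln was 2.18. Krt19 had a log2 FC of 1.58 (SE 0.61, FDR 0.478), Krt8 of 1.19 (SE 0.50, FDR 0.509), Wt1 of 1.16 (SE 0.68, FDR 0.645), Krt18 of 0.71, Lrrn4 of 0.69, Upk3b of 0.16 and Upk1b of -0.73. No member was free of overlap between these groups, where 1.52% of all genes were higher in every KPC IL6KO library. The quasi-likelihood fit called 0% of genes and 0 members, with 3 members and 1584 genes at an unadjusted p under 0.05. The median log2 FC was 0.93 over the members and -0.03 over all genes.

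The third comparison set the tumors apart by Il6 in the tumor cells. Between KPC and KPC IL6KO all 8 members overlapped, and 0.637% of genes were higher and 3.69% lower in every KPC library. The log2 FC of KPC over KPC IL6KO was -1.33 (SE 0.78, FDR 0.893) for Upk3b, -1.17 (SE 1.00, FDR 0.971) for Msln and 0.94 (SE 0.73, FDR 0.948) for Upk1b. It lay between -0.19 and 0.56 for the other 5, with SEs of 0.49 to 0.69. These errors leave differences of either sign possible, and the values do not show that the groups were alike. edgeR's quasi-likelihood test called 0% of genes and 0 members, with 0 members and 1062 genes at an unadjusted p under 0.05, and DESeq2 called 0 members, with 0.112% of genes called up and 0.625% called down. The 3 comparisons share libraries, so their values are not independent of each other.

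**Figure D2:**
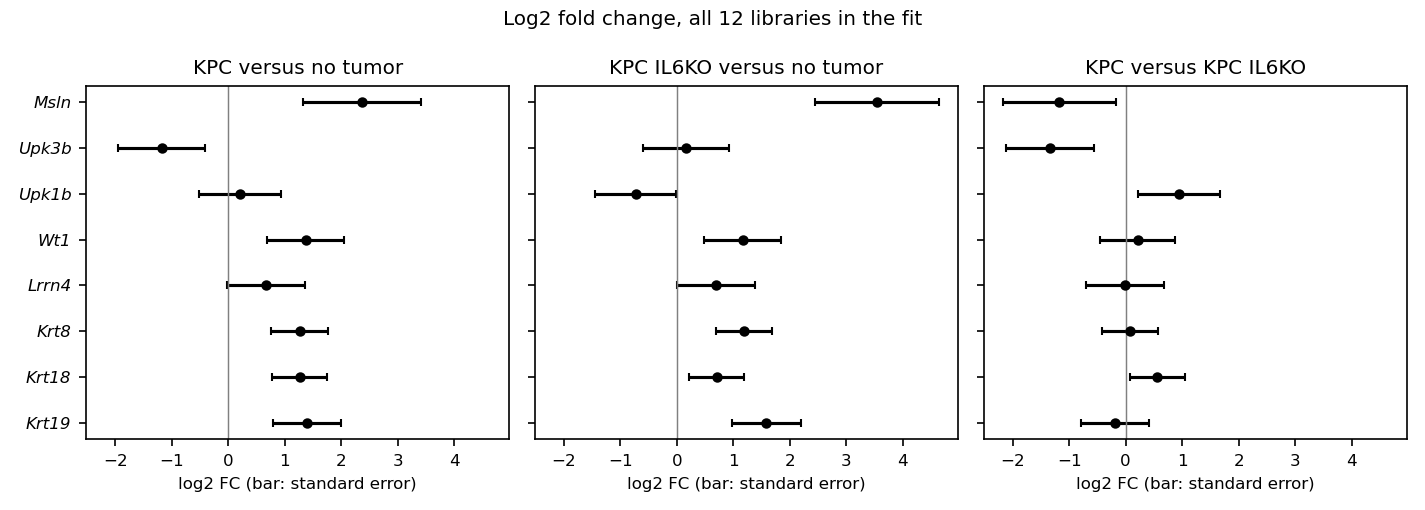
Log2 FC of the 8 genes in each of the 3 comparisons, from edgeR's quasi-likelihood fit to all 12 fat libraries, with the standard error as a horizontal bar. In KPC and in KPC IL6KO compared with no tumor 7 of 8 points lie above 0, the exceptions being Upk3b and Upk1b, and no gene was called.

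Gpx5 RNA was spread unevenly over the groups. All 4 KPC libraries but 2 of no tumor and 1 of KPC IL6KO had more than 10000 CPM. Gpx5 does not stand for all epididymal RNA. Crisp1, another epididymal gene, reached 12023 and 14517 CPM in no tumor 6 and 8, which had little Gpx5. KPC IL6KO 7 and 8, also with little Gpx5, had 12122 and 9432 CPM of Crisp1, but KPC IL6KO 5 had 621. With much Gpx5, Crisp1 ranged from 156 CPM (KPC 5) to 5754 CPM (no tumor 7). The members were also compared among the libraries with Gpx5 over 10000 CPM. These libraries were chosen after the data had been seen, and the no tumor libraries kept, 5 and 7, are the lowest of their group for Msln, Upk3b, Lrrn4 and Wt1. The choice therefore raises the differences of these 4 members, and the values are a description and no support for a change. Every KPC library exceeded both of these no tumor libraries for 7 of the 8 members, all except Upk1b, compared with 4 of 8 over the whole groups, and this held for 15.6% of genes. In a fit to the 7 libraries with much Gpx5, the log2 FC was 3.97 (SE 0.66, FDR 0.0400) for Msln, 3.28 (SE 0.54, FDR 0.0400) for Wt1 and 2.72 (SE 0.29, FDR 0.0256) for Lrrn4 by edgeR's quasi-likelihood test. In this selected set 2.02% of genes were called up, and in the fit to all 12 libraries none of the 3 was called. Upk3b had a log2 FC of 1.47 (SE 0.32, FDR 0.0664), the opposite direction from the fit to all libraries, and Upk1b of -0.03. The keratins differed little from that fit, with a log2 FC of 1.07 for Krt8, 0.96 for Krt18 and 1.57 for Krt19, and were not called.

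With all 12 libraries and the summed level of an epididymis gene list as a covariate, Msln had a log2 FC of 3.19 in KPC compared with no tumor (SE 0.45, FDR 0.0113) and was the 1 member called, where 2.46% of genes were called up. Wt1 then had a log2 FC of 2.14 (SE 0.53, FDR 0.0659), Lrrn4 of 1.56 (SE 0.47, FDR 0.110) and Upk3b of -0.10 (SE 0.54). In this fit the log2 FC of Msln was 1.26 (FDR 0.753) in KPC IL6KO compared with no tumor, and that of KPC over KPC IL6KO was 1.93 (FDR 0.366). The covariate did not stand for the same genes in every library. It was mostly Pate4 in KPC IL6KO 5 (3534 CPM) and mostly Crisp1 in no tumor 6 and 8 (12023 and 14517 CPM). No KPC library had a low sum, the lowest being 48061 CPM. How far the values of this fit depend on this was not tested. In the 5 libraries with little Gpx5, which are of no tumor and KPC IL6KO alone, no member was called and Msln had a log2 FC of 3.21 (FDR 0.709), with 0% of genes called. No KPC library had little Gpx5, so KPC could not be compared with no tumor at that end.

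**Figure D3:**
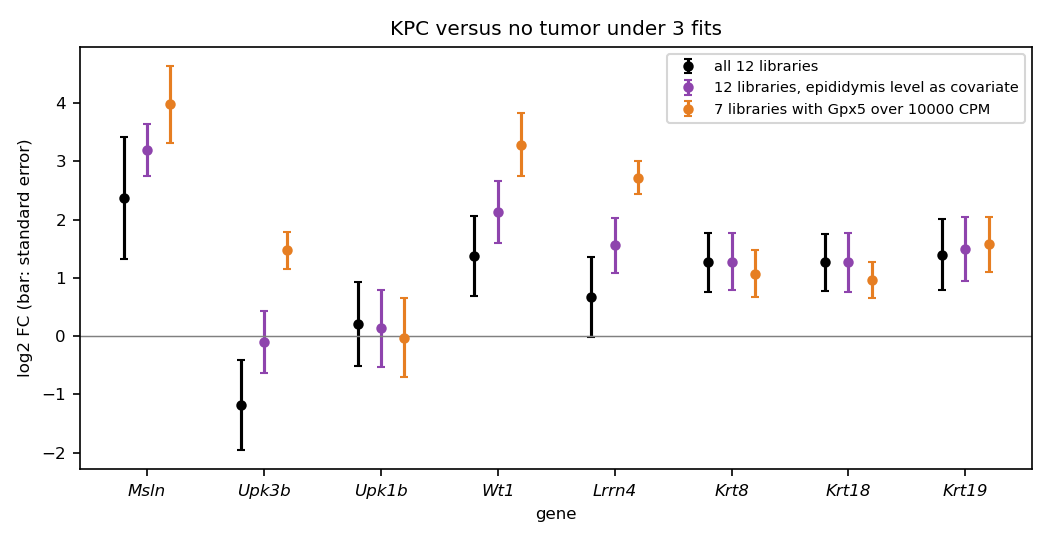
Log2 FC of KPC over no tumor for the 8 genes, with the standard error as a vertical bar, from the fit to all 12 libraries (black), the same with the epididymis level as a covariate (purple) and the 7 libraries with Gpx5 over 10000 CPM (orange). Msln, Wt1, Lrrn4 and Upk3b have higher values in the orange fit than in the black one, and the 3 keratins and Upk1b stay within an SE of the black value.

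Ratios between members within a library do not depend on its depth or normalization. The ratio of Lrrn4 to Upk3b, both in CPM, was 0.55, 0.33, 0.37 and 0.24 in replicates 5 to 8 of no tumor, 1.15, 1.15, 0.92 and 0.95 in KPC, and 0.35, 0.38, 0.35 and 0.53 in KPC IL6KO. The 4 KPC libraries lay above the 8 others, and no tumor and KPC IL6KO overlapped. The mean was 0.37 ± 0.13 (SD, n = 4) in no tumor, 1.04 ± 0.13 in KPC and 0.40 ± 0.08 in KPC IL6KO. The ratio was 0.55, 0.37 and 0.38 in the 3 libraries of no tumor and KPC IL6KO with much Gpx5. It was 0.24 to 0.53 in those with little. No KPC library had little Gpx5, and the part of epididymal or urothelial tissue in the ratio was not tested.

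The ratio of Wt1 to Upk3b behaved alike, with 0.24, 0.17, 0.40 and 0.21 in no tumor, 1.47, 1.43, 0.99 and 0.89 in KPC, and 0.43, 0.52, 0.36 and 0.42 in KPC IL6KO. KPC was again above all other libraries, with a mean of 1.20 ± 0.29 (SD, n = 4) compared with 0.25 ± 0.10 in no tumor and 0.43 ± 0.07 in KPC IL6KO. The ratio of Msln to Upk3b was also higher in every KPC library (1.99 to 10.3) than in no tumor (0.36 to 1.09), but KPC IL6KO spread from 0.64 to 11.8. Of the 7 ratios to Upk3b, 3 were higher in every KPC library than in no tumor, a pattern that 2.03% of genes had. Higher in every KPC library than in KPC IL6KO were 2 of the 7, compared with 3.56% of genes. Above every library of both other groups were the same 2, Lrrn4 and Wt1, compared with 0.731% of genes. The ratios share their denominator, and Wt1 and Lrrn4 moved together, so these are not separate results. Upk3b was therefore low in KPC relative to these members, while its own level overlapped with that of both other groups. Ratios were not tested.

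The ratio of Krt8 to Krt18 was the most stable of those computed. It ranged from 0.61 to 1.21 over the 12 libraries, while Krt8 ranged 9.67-fold and Krt18 10.5-fold, and Krt8 was below Krt18 in 8 libraries. The mean was 0.85 ± 0.21 (SD, n = 4) in no tumor, 0.77 ± 0.14 in KPC and 1.04 ± 0.22 in KPC IL6KO, and the groups overlapped.

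**Figure D4:**
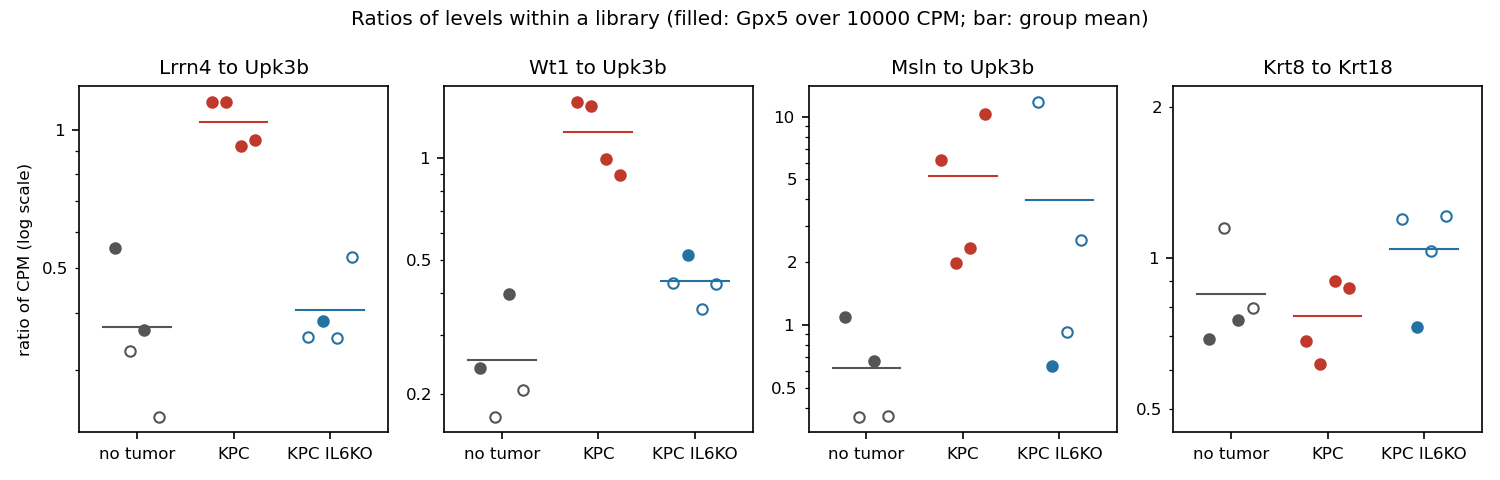
Ratio of the CPM of 2 genes in each fat library, on a log axis, for Lrrn4, Wt1 and Msln to Upk3b and for Krt8 to Krt18 (4 libraries per group; filled points have Gpx5 over 10000 CPM; the bar is the group mean). The KPC points lie above all other points for Lrrn4 and Wt1 to Upk3b, and the groups overlap for Krt8 to Krt18.

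The members did not vary as 1 group. Over the 12 libraries, Pearson's r of log2(CPM + 0.5), given as a description without a test, ranged from -0.53 to 0.93 over the 28 pairs, with a median of 0.36. It was above 0.8 in 3 pairs and below 0 in 7. Upk3b, Lrrn4 and Wt1 formed one cluster and the keratins another. Msln lay between them, and Upk1b was near or below 0 with most members.

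Krt8 and Krt18 had an r of 0.93 (Spearman's rho 0.94, and r 0.91 without the 2 libraries farthest from the median of Krt8), and Krt8 and Krt19 an r of 0.86. Wt1 and Lrrn4 also had an r of 0.93 (rho 0.82), but this rests in part on the 3 libraries with the lowest Lrrn4, and over the other 9 it was 0.55. For Upk3b the r was 0.80 with Lrrn4 and 0.68 with Wt1, and over the 9 libraries 0.47 and -0.12. After the group means were taken off, the r of Upk3b was 0.97 with Lrrn4 and 0.96 with Wt1. Within a group these 3 genes thus varied together over all 12 libraries, and the offset between Upk3b and the other 2 lay between KPC and the other groups. By the same measure their r with Gpx5 was -0.94 for Upk3b, -0.95 for Lrrn4 and -0.89 for Wt1. It was not computed without the 3 libraries lowest in Lrrn4, so variation apart from the Gpx5 split is not shown. Msln had an r of 0.74 with Krt8 and 0.76 with Krt19, and over the 9 libraries 0.89 and 0.85, whereas its r with Lrrn4 went from 0.73 to -0.19.

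**Figure D5:**
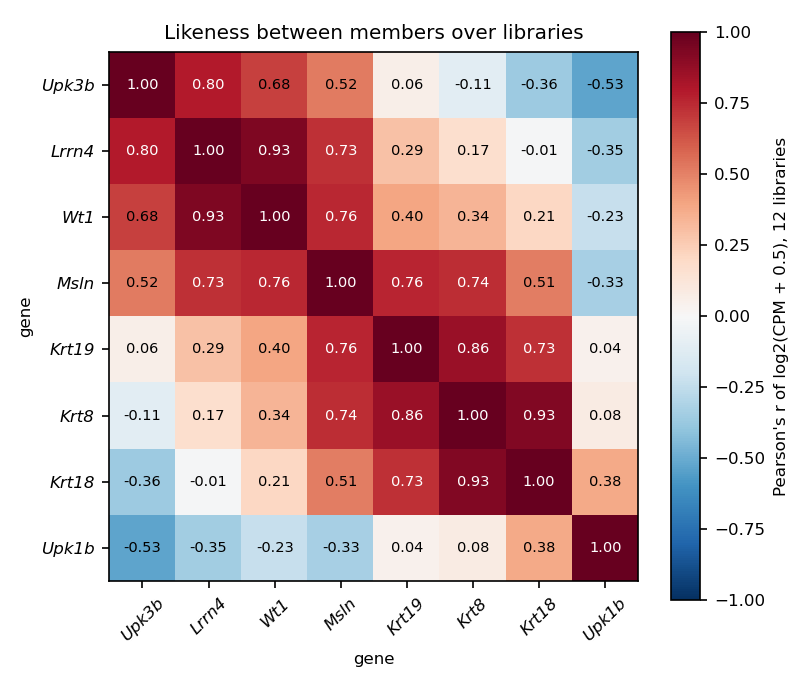
Pearson's r between the log2(CPM + 0.5) of each pair of the 8 genes over the 12 fat libraries, with the value in each cell and the color running from -1 (blue) to 1 (red). Upk3b, Lrrn4 and Wt1 form a block with r of 0.68 to 0.93, the keratins Krt19, Krt8 and Krt18 form another with r of 0.73 to 0.93, and Upk1b is below 0 with Upk3b, Lrrn4, Wt1 and Msln.

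The 8 genes outside the list with the highest median r to Msln, Upk3b, Upk1b and Lrrn4 were Fdxr, Sulf1, Lgals3, Fam126a, Palld, Hacd1, Plekho1 and Pkhd1l1. Their median r ran from 0.82 to 0.84 over the 12 libraries, and r with Upk1b was below 0 for all 8. Taken member by member, which was chosen after the values had been seen, genes near a single member were Crb2 (r 0.97) and Bnc1 (r 0.96) for Wt1, Colec12 (r 0.97) for Lrrn4, Fbln1 (r 0.97) for Upk3b, Slc7a6 (r 0.99) for Msln and Atad5 (r 0.99) for Krt18. Bnc1 is itself a known mesothelial transcription factor.

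Genes of other cell types moved with some members. Muc1, an epithelial mucin, had a mean of 3.52 ± 1.86 (SD, n = 4) CPM in no tumor, 107 ± 84.9 in KPC and 102 ± 152 in KPC IL6KO, and its r with Msln was 0.92 over the 12 libraries. Onecut2, a transcription factor of liver and pancreas development, was at 0.0465 to 3.11 CPM in no tumor, at 15.5 to 221 in KPC and at 0.617 to 444 in KPC IL6KO. A list of 10 genes of gastric and tumor epithelium, 9 of them in the table, summed to 3.39 to 90.8 CPM in no tumor, 127 to 637 in KPC and 34.9 to 855 in KPC IL6KO. The 15 general epithelial genes did not follow this order, with summed levels of 1333 to 2963 CPM, 2041 to 2780 and 1342 to 2694. Of 14 exocrine pancreas genes the table held 1, Cela1, at 7.65 to 17.6 CPM in no tumor, 13.1 to 30.1 in KPC and 7.65 to 57.2 in KPC IL6KO. KPC IL6KO 5, the library with the highest Msln, Krt8 and Krt19, also had the highest Muc1, Onecut2 and Cela1 and the highest sum of the gastric and tumor epithelium list. That sum was mostly Onecut2 (444 CPM) and Muc1 (326 CPM), so it is no separate observation. The other genes of the list lay between 0.0491 CPM (Tff2) and 50.3 CPM (Agr2) in that library. The highest no tumor sum, in no tumor 7, was mostly Agr2 (88.7 CPM). The part of these cells in the levels of Msln and the keratins was not tested.

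Of 18 other mesothelial genes, all in the table, edgeR's quasi-likelihood test called none in any comparison. In KPC compared with no tumor 11 were higher and 7 lower, with a median log2 FC of 0.51 and 4 genes at an unadjusted p under 0.05. In KPC IL6KO compared with no tumor 17 were higher and 1 lower, with a median of 0.85 and 3 genes at that p, and in KPC compared with KPC IL6KO 7 were higher and 11 lower, with a median of -0.27. Krt7, a type II keratin of ducts and mesothelium and the highest gene of this list, was at 22.7 to 113 CPM in no tumor, 53.1 to 206 in KPC and 39.9 to 557 in KPC IL6KO. Calb2, which encodes calretinin, a marker of mesothelial cells in people, was at 0 to 1.86 CPM over all libraries. Of another list of 9 uroplakins and keratins, 2 had a higher and 7 a lower value in KPC than in no tumor, with a median log2 FC of -1.21 and none called. At an unadjusted p under 0.05 by edgeR's quasi-likelihood test there were 5 of the 9. Some of these values rested on 1 or 2 no tumor libraries. Upk3a was at 79.2 CPM in no tumor 8 and at 0.242 to 0.604 in the other 3 no tumor libraries, and Krt23, the gene at the median, was at 207 and 90.9 CPM in no tumor 5 and 7 and at 0.277 and 0.838 in 6 and 8. Krt20, a keratin of gut and urothelium, had a log2 FC of 3.71 (FDR 0.378).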

How the data were processed

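RNA from epididymal fat pads of 4 mice per group was sequenced, with 1 library per mouse, grouped by sample title. The authors aligned reads with STAR to mm10 and counted uniquely mapped reads per gene with featureCounts 1.5.1, and the deposited unit is the raw count without normalization. Genes with few counts were absent from the table by a rule not given in the sources used here. For the fat libraries the labels and the paper's methods name different TruSeq kits and different minimum RNA integrity numbers. Totals were 26306377 to 56308545 counts, so that 3 counts corresponded to 0.0474 to 0.123 CPM, which covers counting error only.

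Counts were analysed in R 4.3.3 with edgeR 4.0.16 (TMM, filterByExpr, which removed no gene, and the quasi-likelihood test in the default form of this version), with all 12 libraries and 3 groups in 1 fit and no covariate. FDR is Benjamini-Hochberg over all 16962 genes, called genes had an FC of 1.5 or more and an FDR no higher than 0.05, and the SE was computed as the absolute log2 FC divided by the square root of F. The alternatives were DESeq2 1.42.0, the likelihood ratio test, the other quasi-likelihood form, other filters and normalizations, fits to 2 groups, an epididymis covariate, a replicate block and leaving out each library. Restricting libraries by Gpx5, and leaving out no tumor 8 with KPC IL6KO 5, were added after seeing the data. The fit was tested on simulated data. Gene positions came from GENCODE vM21 (GRCm38), matched by symbol, and exon length is the union of annotated exons. Figures were drawn with matplotlib 3.10.9.

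The members and the gene lists were chosen with earlier results of these data known. The genes named were the members, the highest gene by mean CPM and any called gene of each other list, Gpx5, Crisp1, Il6 and the 8 genes most like Msln, Upk3b, Upk1b and Lrrn4, and others named are said to have been chosen after their values were seen. Upk1a, Upk2, Upk3a, Pate4, Onecut2, Calb2, Krt20, Tff1, Tff2 and Agr2 were chosen in that way too. Crisp1, an epididymal gene, was at 156 to 14517 CPM, and its order over the libraries differed from that of Gpx5. The lists for visceral stroma, mesenchymal transition and macrophages were computed as well. Nothing says more of the replicates than that they are separate mice. Replicate numbers were not used to pair the samples in the main fit. Some items are not reported here.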

Additional observations from a re-analysis of the deposited data

Results flagged for a closer look

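The quadriceps count table holds 2 of the genes, Krt18 and Krt19, which the comparisons in fat did not use. In that muscle, 2 of the 4 KPC libraries lay above the highest of the 3 no tumor libraries for both keratins. Krt18 was at 6.67 CPM (of the library total) in KPC 1 and at 4.68 in KPC 4, compared with at most 1.41 in no tumor. Krt19 was at 5.05 CPM in KPC 1 and at 2.07 in KPC 4, compared with at most 1.26 in no tumor. The other 2 KPC libraries were at 0.453 and 1.01 CPM for Krt18 and at 0.235 and 0.270 CPM for Krt19, and KPC IL6KO reached 0.350 and 0.643 CPM. These differences between groups were not tested.

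In fat, no library stood apart from its group in 24 tests of the members by Dixon's criterion on CPM. On log2(CPM + 0.5), a scale tried after seeing the data, no tumor 6 stood apart below the rest of its group for Krt8 (113 CPM) and Krt18 (98.5 CPM), with a gap of 0.855 of the range of the group for either gene. The criterion flags about 1 in 20 groups by chance. No tumor 6 also had the highest adipocyte sum of the 12 libraries, 43187 CPM.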

How the results depend on the processing

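The largest change with the processing was in how many genes were called. For KPC compared with no tumor, where the quasi-likelihood fit called none, 364 genes were called up and 221 down by DESeq2, 268 and 145 by the likelihood ratio test, 15 and 1 by the other quasi-likelihood form, 166 and 8 in the fit to 2 groups, 417 and 38 with the epididymis covariate and 342 and 51 among libraries with Gpx5 over 10000 CPM. Members called up were 1 with the covariate and 3 in those libraries. For KPC IL6KO compared with no tumor, 281 were called up and 4 down by DESeq2, 209 up by the likelihood ratio test and 1 up with the covariate, with 1 member called by each of the first 2 tests. For KPC compared with KPC IL6KO, DESeq2 called 19 up and 106 down, the likelihood ratio test 7 and 59, and the other quasi-likelihood form 1 up. The cause of these differences between tests was not tested. Leaving out each library gave 0 to 14 genes up and 0 to 1 down in KPC compared with no tumor and 0 to 12 up and 0 to 1 down in KPC IL6KO compared with no tumor, with the highest counts without KPC IL6KO 6 and 1 gene up without KPC 8, and no member was called.

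Directions of members changed as follows. In KPC compared with no tumor, Upk3b was at a log2 FC of 1.47 and Upk1b at -0.026 among libraries with Gpx5 over 10000 CPM. In KPC IL6KO compared with no tumor, Upk3b was at -0.22 with the covariate and at -0.44 in libraries with Gpx5 under 100 CPM. In KPC compared with KPC IL6KO, the covariate gave 1.93 for Msln, 0.12 for Upk3b, 1.37 for Lrrn4 and 0.52 for Krt19. Without no tumor 8 and KPC IL6KO 5 the log2 FC was 0.27 for Msln and 0.64 for Krt19. For Lrrn4 it was 0.00085 by DESeq2, 0.0031 in the fit to 2 groups, 0.00083 with RLE and 0.022 without the epididymis genes in library sizes. The cause was not tested. Leaving out each library gave ranges of -0.48 to 0.58 for Upk1b in KPC compared with no tumor (below 0 without no tumor 6 or KPC 5) and -0.21 to 0.89 for Upk3b in KPC IL6KO compared with no tumor (below 0 without no tumor 5 or 7, or KPC IL6KO 7 or 8). In KPC compared with KPC IL6KO they were -1.58 to 0.19 for Msln (above 0 without KPC IL6KO 5), -0.063 to 0.44 for Wt1 (below 0 without KPC IL6KO 6), -0.33 to 0.42 for Lrrn4 (above 0 without KPC 8 or KPC IL6KO 7 or 8), -0.23 to 0.69 for Krt8 (below 0 without KPC 8 or KPC IL6KO 6 or 7) and -0.53 to 0.55 for Krt19 (above 0 without KPC 6 or KPC IL6KO 5). The log2 FC of Msln in KPC compared with no tumor lay between 1.96 and 3.97 in all fits, and those of Krt8, Krt18 and Krt19 between 0.95 and 1.63.

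Libraries with the same replicate number correlated from -0.58 to 0.59 in their deviations from the group means. No values are given for libraries with different numbers, so these cannot settle whether the numbers link the mice. The fit with the replicate number as a block called 0 genes in each comparison and moved the log2 FC of KPC over KPC IL6KO to 0.10 for Lrrn4 and 0.027 for Krt19. Depth did not limit the members, with at least 32 counts in every library.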

Other observations

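All 7 genes of the macrophage list had a log2 FC above 0 compared with no tumor, with a median of 1.81 in KPC and 1.47 in KPC IL6KO, and none was called by edgeR's quasi-likelihood test. At an unadjusted p under 0.05 there were 4 of the 7 in KPC and 6 in KPC IL6KO. Their summed level was 208 to 890 CPM in no tumor, 1009 to 1679 in KPC and 358 to 2961 in KPC IL6KO, whose library 6 lay inside the range of no tumor. All 12 adipocyte genes had a log2 FC below 0 in both, with medians of -1.39 and -0.36, none called, and 4 and 0 at that p. Their summed level was highest in no tumor 6 (43187 CPM) and lowest in no tumor 7 (3156 CPM), so no tumor spanned all other libraries. Visceral stroma genes had medians of -0.33 and -0.09, and genes of mesenchymal transition 0.16 and 0.55, with none called in either list.

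Tff1, a secreted trefoil peptide of gastric epithelium, was at 2.66 to 19.3 CPM in KPC, at most 0.0819 in no tumor and at most 0.245 in KPC IL6KO. Tff1 was chosen after its values had been seen, and its FDR was 0.0763 for KPC compared with no tumor and 0.535 for KPC compared with KPC IL6KO by edgeR's quasi-likelihood test.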
